A study of Mus musculus with 15 samples.

Results

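Transcript levels in the olfactory epithelium of mice 5 days after bilateral olfactory bulbectomy (OBX, removal of both olfactory bulbs) were compared with those of mice 5 days after a sham operation. The comparison uses 6 of the 15 arrays of the series, 3 OBX day 5 arrays and 3 sham day 5 arrays, chosen by their titles. Both groups were male C57Bl/6 mice of 6 weeks, with no transgene or drug named in the labels, and they differ in the operation alone as far as the labels say. Each Affymetrix MG_U74Av2 array holds total RNA pooled from 3 mice, 5 µg from each, so the 6 arrays stand for 18 mice and the 9 mice of a group enter as 3 pools. P-values therefore measure the spread between pools, not between single mice. The other 9 arrays, of untreated mice and of mice at OBX days 1 and 7, enter only where they are named. Of 12422 probe sets (sets of short probes that measure one transcript), the 6950 with 3 or more present calls among the 6 arrays entered the test. The 350 probe sets with exactly 3 present calls had a median signal of 525 and a median absolute log2 change of 0.32, and the 354 with 2 present calls, just outside, had 346 and 0.36.

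The olfactory epithelium lines part of the nasal cavity. Its olfactory sensory neurons send cilia into the mucus, where odorant receptors act through a G protein, adenylyl cyclase and a cyclic nucleotide gated channel, and send an axon to the olfactory bulb. Removing the bulb takes away the axon's target, after which mature neurons die and basal stem and progenitor cells divide and make new ones. Sustentacular cells support the neurons and detoxify inhaled compounds, Bowman's glands secrete mucus and defence proteins, and macrophages take up dead cells.

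The tissue label was checked against Omp, the marker of mature olfactory neurons, which was called present on all 6 arrays at signals of 5420.4 to 39188. Array signals are linear intensities that the authors scaled to a common mean, and a present call says that the array software found a probe set above its mismatch controls. Present calls covered 51.4% to 54.4% of probe sets on the sham arrays and 53.9% to 58.7% on the OBX arrays. Pearson correlations of log2 signal across the 6950 probe sets were 0.977 to 0.987 between sham arrays. OBX replicates 2 and 3 correlated at 0.977 with each other, and OBX replicate 1 stood apart from them at 0.920 and 0.924. The median SD of log2 signal was 0.13 over the sham arrays and 0.27 over the OBX arrays. Ratios of 3′ to 5′ signal for actin, a measure of RNA quality, were 1.51 on OBX replicate 1 and 1.54 to 1.79 on the other 5 arrays. All sham arrays were scanned on the first scan day and all OBX day 5 arrays on the second, so scan day and operation cannot be told apart within these 6 arrays. The same holds for hybridization run, with sham arrays in runs 1 and 2 and OBX day 5 arrays in run 3. Hybridization run was not a term in any fit.

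Of the 6950 probe sets, 248 rose (3.57%) and 232 fell (3.34%) at an adjusted p under 0.05 in limma. The groups did not overlap in any of these 480, and 34.7% of all probe sets tested also had groups that did not overlap. Among the 480, 68 were more than 2-fold higher and 113 more than 2-fold lower. The count depends on single arrays. It was 955 higher (13.7%) and 760 lower (10.9%) without OBX replicate 1, 71 and 109 without OBX replicate 2, and 92 (1.32%) and 96 (1.38%) without OBX replicate 3. Without sham replicate 2 it was 20 higher and 16 lower. Without sham replicate 1 or sham replicate 3 limma called 0 either way, with 1221 and 1115 probe sets at an unadjusted p under 0.05. All 480 were also called without OBX replicate 1. With all 15 arrays and scan day as a term, which rests on the 1 OBX day 1 array scanned on the second day, 19 were higher and 51 lower. Of 162 called probe sets among those the text draws on, 27 kept their call with scan day as a term. They include Adcy3, Slc8a1, Vsnl1, Syt1, Snap25, Chga, S100a5, Reep1, Plxna3, Clip4, C1qb, Clu, Lgals3, Ctsh, Wfdc2 and Plk1. The other 135 did not keep it, among them Omp, Chil1 and Ltf (limma adjusted p = 0.169, 0.366 and 0.180).

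**Figure D1:**
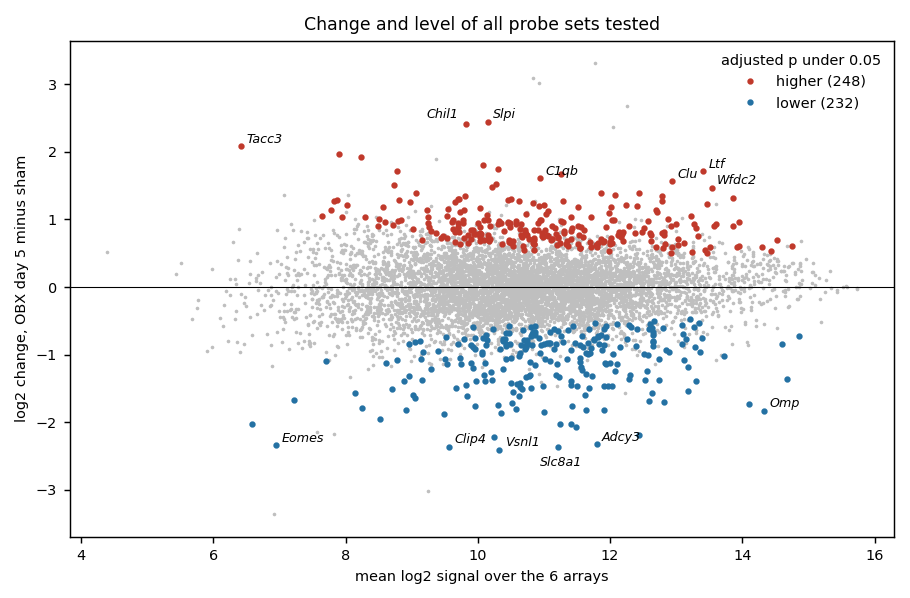
Log2 change (OBX day 5 minus sham, vertical axis) against mean log2 signal over the 6 arrays (horizontal axis) for the 6950 probe sets tested, 1 point each. Red points are the 248 called higher and blue points the 232 called lower. The named points include Omp at -1.83 and Chil1 at 2.41.

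Transcripts of mature olfactory sensory neurons fell. Of the 12 tested genes of odour transduction and mature neurons, 6 fell and 0 rose, against 3.44% lower and 3.76% higher among all 5403 genes (each gene by its brightest probe set). Their median log2 change was -0.90, against -0.00 over all genes. Of all genes, 14.4% were called higher and 11.3% lower without OBX replicate 1. Without OBX replicate 3 the shares were 1.31% and 1.46%. These shares are the backgrounds for the list counts below that leave out an array. For counts on all 6 arrays the backgrounds are 3.76% higher and 3.44% lower. The lists and their members were chosen with earlier results of these data known. A list count above its background is therefore a description and not a test. Omp, the olfactory marker protein of mature neurons, had signals of 39156, 39188 and 38394 on sham replicates 1 to 3 and 19232, 12480.0 and 5420.4 on OBX replicates 1 to 3. The sham arrays were nearly level, and the OBX arrays were all lower and wide apart, with replicate 1 highest and replicate 3 lowest. Omp fell 3.56-fold, a log2 change of -1.83 ± 0.40 (SE, adjusted p = 0.0398). Without OBX replicate 1 the change was -2.24 (adjusted p = 0.00227). In bulk tissue, fewer neurons and less RNA per neuron cannot be told apart.

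Adcy3, the adenylyl cyclase of odour transduction, read 8522, 7628 and 7799 on the sham arrays and 2276, 1509 and 1175 on the OBX arrays, a 5.01-fold fall (-2.32 ± 0.23, adjusted p = 0.00724). Cnga2, the main subunit of the cyclic nucleotide gated channel, read 12567, 9720.4 and 10501 against 5582, 4182 and 2146 and fell 2.95-fold (adjusted p = 0.0352). A second Cnga2 probe set fell 3.54-fold. For all of these the OBX replicates kept the same order, with replicate 1 least reduced. S100a5, a calcium-binding protein abundant in olfactory neurons, read 42283, 42508 and 40862 against 18544, 17796 and 13345 and fell 2.55-fold (adjusted p = 0.0073). Reep1, a membrane protein of the endoplasmic reticulum whose family aids receptor transport, read 7477, 8421 and 7963 against 3306, 3208 and 3117 and fell 2.48-fold (adjusted p = 0.00724). The 3 OBX values of Reep1 lay within a narrow band. Cidea, a lipid droplet protein, fell 1.81-fold (adjusted p = 0.0341). Omp has no promoter sequence in the tables used here. The EBF motif (TCCC, then any pair of bases, then GGGA), searched on both strands, was found in 0 of the 4 promoters of the called genes of this list. It was found in 0.914% of all 27025 promoters and in 0.864% of the 4398 promoters of genes tested.

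Odorant receptors are G protein coupled receptors of which each mature neuron uses one. The array holds 20 of them, 7 were tested, 4 fell and 0 rose, with a median log2 change of -0.98. The groups did not overlap for any of the 7, against 16.1% of all genes with OBX wholly lower. Present calls on the 3 sham arrays alone were enough for a receptor to be tested. Of the 7, 1 had a present call on no OBX array. A receptor could thus enter because it was bright on sham arrays, so these counts are not independent of the filter. Olfr1507 read 2649, 2267 and 2984 on the sham arrays and 572, 1106 and 281 on the OBX arrays, 4.65-fold lower (adjusted p = 0.0305). Olfr1264 read 2727, 2782 and 2761 against 675, 1451 and 917, 2.86-fold lower (adjusted p = 0.0209). Replicate 2 was the highest of the OBX arrays for both receptors. Olfr1509 fell 2.67-fold and Olfr93 1.92-fold (adjusted p = 0.0171 and 0.0245). All 7 receptors fell without OBX replicate 1 and 2 without OBX replicate 3, at backgrounds of 11.3% and 1.46%.

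**Figure D2:**
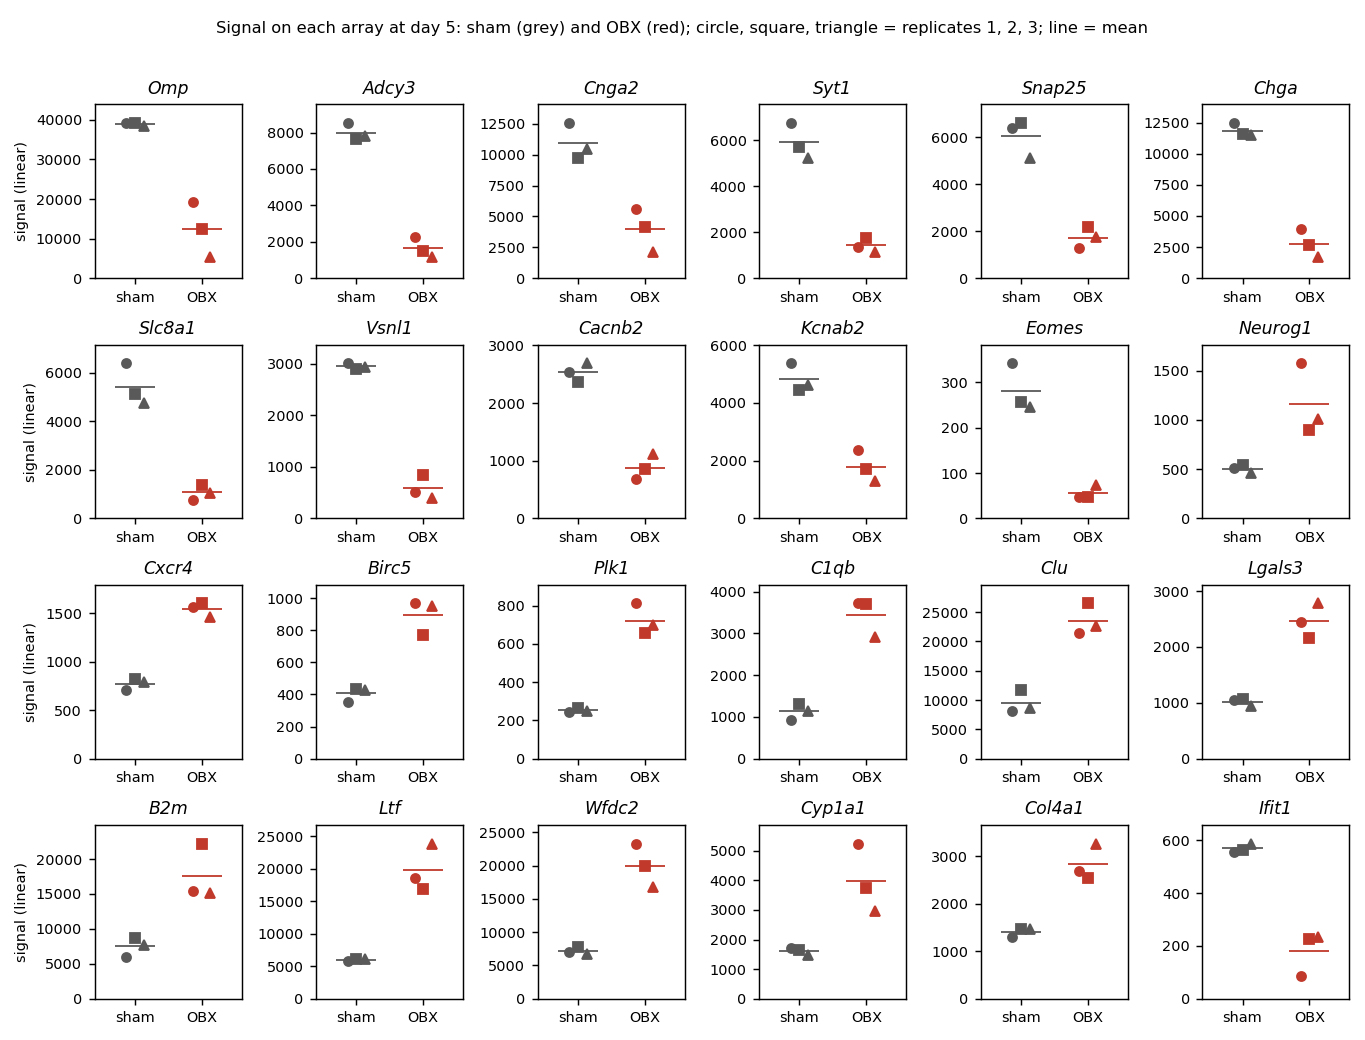
Linear signal (vertical axis) of 24 genes on each sham day 5 array (grey) and each OBX day 5 array (red), with replicates 1, 2 and 3 as circle, square and triangle and a line at the group mean. The panels from Omp to Eomes show OBX arrays below sham, and the panels from Neurog1 to Col4a1 show them above. Each gene is drawn by its brightest probe set except Plk1, drawn by the dim one that passed. The brighter Plk1 probe set, with a log2 change of 0.55, did not pass. Ifit1, in the last panel, lies lower on all OBX arrays.

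Genes of neurotransmitter release fell too. Among 21 tested synaptic vesicle genes 11 fell and 0 rose, with a median log2 change of -0.84. Syt1, the calcium sensor of vesicle release, read 6759, 5732 and 5256 on the sham arrays and 1375, 1762 and 1145 on the OBX arrays, a 4.19-fold fall (-2.07 ± 0.19, adjusted p = 0.00724). The OBX values lay close together and far below sham. Snap25, a SNARE protein of vesicle fusion, read 6377, 6604 and 5118 against 1266, 2160.2 and 1774 and fell 3.54-fold (adjusted p = 0.00763). Here replicate 1 was the lowest, unlike Omp. Syt4 fell 3.86-fold and Syp, a vesicle membrane protein, 3.12-fold (adjusted p = 0.0127 and 0.02). Smaller falls were those of Syt11 (1.98-fold) and Dnm1, the dynamin that pinches off vesicles (1.96-fold). Both Dnm1 probe sets fell. The list had 6 falls without OBX replicate 3 and 15 without replicate 1, at backgrounds of 1.46% and 11.3%.

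Granins and neuropeptide processing proteins load secretory granules, and 4 of 9 tested fell and 0 rose. Chga, chromogranin A, read 12461, 11567 and 11505 against 3941, 2672 and 1679, a 4.54-fold fall (-2.18 ± 0.28, adjusted p = 0.0101). Its OBX replicates had the order seen for Omp. Scg3 fell 2.73-fold, Chgb 2.17-fold and Scg5 1.79-fold (adjusted p = 0.0331, 0.015 and 0.0358). A second Scg3 probe set had a log2 change of -0.56 and a second Chgb probe set -0.30, and neither passed. The list had 2 falls without OBX replicate 3.

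Calcium handling genes gave 2 of the deepest falls, with 3 of 15 tested falling and 1 rising. Vsnl1, a neuronal calcium sensor, read 3008, 2905 and 2942 on the sham arrays and 519, 834 and 396 on the OBX arrays, 5.31-fold lower (-2.41 ± 0.26, adjusted p = 0.00729). Slc8a1, the plasma membrane sodium-calcium exchanger, read 6386, 5116 and 4765 against 774, 1366 and 1061, 5.18-fold lower (-2.37 ± 0.23, adjusted p = 0.00724). For both the highest OBX value was that of replicate 2, and it lay far below the lowest sham value. Atp2a2, a calcium pump of the endoplasmic reticulum, fell 1.66-fold (adjusted p = 0.0321). The member that rose was S100b, which is also a glial marker, 1.71-fold (adjusted p = 0.0389). The calcium list had 6 falls and 3 rises without OBX replicate 1, and 2 and 0 without replicate 3.

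Ion channel genes fell in 9 of 20 tested and rose in 0, with a median log2 change of -0.76. Cacnb2, a calcium channel subunit, read 2541, 2368 and 2692 against 678, 863 and 1109 and fell 2.92-fold (adjusted p = 0.0101). Kcnab2, a potassium channel subunit, read 5378, 4458 and 4616 against 2354, 1708 and 1298 and fell 2.77-fold (adjusted p = 0.0158). The OBX replicates ran in opposite orders for these channels, Cacnb2 lowest on replicate 1 and Kcnab2 lowest on replicate 3. A second Kcnab2 probe set fell 3.05-fold. The potassium channels Kcnma1, Kcna5 and Kcna2 fell 2.51-fold, 2.49-fold and 2.19-fold. The sodium channel Scn8a fell 2.49-fold (adjusted p = 0.0197).

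Ciliary genes fell in 8 of 27 tested and rose in 0, and 26 of the 27 had a log2 change below 0, against 2716 of 5403 genes. Kif9, a kinesin of motile cilia, read 2619.9, 2622 and 2532 on the sham arrays and 926, 1094 and 907 on the OBX arrays, 2.67-fold lower (-1.41 ± 0.14, adjusted p = 0.00724). A second Kif9 probe set fell 2.61-fold, and both had narrow OBX values. Ift81, of the intraflagellar transport that builds cilia, fell 1.81-fold and its dimmer probe set had -0.56, which did not pass. Arl3, a small GTPase of cilia, fell 1.67-fold, and Bbs9, of the Bardet-Biedl complex that carries membrane proteins in cilia, 1.71-fold. Kif3c fell 1.81-fold. Ak1, an adenylate kinase, read 9753, 9487 and 9435 against 5783, 3718 and 2336, 2.59-fold lower (adjusted p = 0.0378), again with replicate 1 least reduced. Without OBX replicate 3 the count of falling ciliary genes was 1, where 1.46% of all genes were called lower.

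The transcription factors of olfactory neurons did not move one way. Of 12 tested 2 fell and 0 rose, with a median log2 change of 0.01. Eomes, a T-box factor, read 342, 257 and 245 on the sham arrays and 47.9, 47.3 and 73.2 on the OBX arrays, 5.06-fold lower (-2.34 ± 0.31, adjusted p = 0.0105). Only 1 of its 3 OBX signals was called present. A second Eomes probe set, called present on 0 OBX arrays, read 478, 446 and 272 against 23.9, 180.3 and 12.5 and did not pass (adjusted p = 0.0667). Ebf3, a helix-loop-helix factor of olfactory neurons, fell 1.69-fold on its brighter probe set (adjusted p = 0.0343), and its other probe set fell too. Leaving out OBX replicate 1 turned the median of this list to 0.30, with 4 rising and 4 falling, and leaving out replicate 3 turned it to -0.21, with 0 rising and 1 falling.

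Immature neuron and axon growth genes went both ways, with 7 of 36 tested falling and 2 rising and a median log2 change of 0.01. Without OBX replicate 3, 2 fell and 2 rose, and without replicate 1, 11 fell and 7 rose. Plxna3, a semaphorin receptor, read 4927, 6589.9 and 5205 against 2174, 1881 and 1837 and fell 2.82-fold (-1.50 ± 0.16, adjusted p = 0.00724). Its OBX values lay close together. The ephrin receptor Epha5 fell 2.86-fold, and Epha7, called present on 0 OBX arrays, was at least 2.97-fold lower (adjusted p = 0.016 and 0.0205). Efna3, an ephrin, fell 1.94-fold and Sema7a, a semaphorin, 1.86-fold (adjusted p = 0.0343 and 0.0182). Cxcr4, the chemokine receptor of early olfactory neurons and their progenitors, went the other way. It read 711, 817 and 788 on the sham arrays and 1561, 1599.8 and 1455 on the OBX arrays, 1.99-fold higher (1.00 ± 0.14, adjusted p = 0.0127). Stmn1, a tubulin-binding protein of growing neurons that dividing cells also use, rose 1.45-fold (adjusted p = 0.0484). Gap43, the growth cone protein that marks immature olfactory neurons, read 9156, 8073 and 8751 against 11278, 11678 and 10735. All 3 OBX values of Gap43 lay above sham, but the log2 change of 0.38 did not pass (adjusted p = 0.0995). Without OBX replicate 1 it was 0.37 and passed (adjusted p = 0.0263).

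Genes of neuronal progenitors rose. Of 33 tested 7 rose and 1 fell, against 3.76% and 3.44% of all genes, with a median log2 change of 0.42. Neurog1, the helix-loop-helix factor of immediate neuronal precursors, read 508, 542 and 464 on the sham arrays and 1574, 898 and 1009 on the OBX arrays. Replicate 1 was the highest, and all OBX values lay above all sham values. Neurog1 rose 2.23-fold (1.16 ± 0.23, adjusted p = 0.0308). Hes6, which promotes neuronal differentiation, rose 2.04-fold (adjusted p = 0.0317). Myc, a growth factor response gene, rose 2.44-fold, and Kit, a receptor present on olfactory progenitors, 1.71-fold (adjusted p = 0.0241 and 0.0287). Gadd45g rose 1.6-fold. The member that fell was Id4, an inhibitor of helix-loop-helix factors, which read 11443, 11850.1 and 11774 against 5594, 7439 and 6760.0, 1.78-fold lower (adjusted p = 0.0198). Without OBX replicate 3, 1 member of the list rose, at a background of 1.31%, and without OBX replicate 1, 19 rose, at a background of 14.4%.

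Genes of mitosis and the spindle gave the same direction, with 10 of 45 tested rising and 0 falling and a median log2 change of 0.53. Birc5, survivin, which takes part in chromosome segregation, read 352, 437 and 428 on the sham arrays and 967, 768 and 949 on the OBX arrays, 2.2-fold higher (1.14 ± 0.18, adjusted p = 0.0174). Sham values lay in a narrow band below all OBX values. Aurka, a spindle pole kinase, read 424, 439.9 and 443 against 932, 767 and 827 and rose 1.93-fold (adjusted p = 0.0198). Kif2c, a kinesin that takes down microtubules, rose 2.05-fold and Cks1b, a subunit of cyclin-dependent kinases, 1.83-fold (adjusted p = 0.0198 and 0.0262). Kif20a, of cytokinesis, had a brighter probe set called present on 0 sham arrays that was at least 2.17-fold higher (adjusted p = 0.02) and a dimmer one, present on 2 sham arrays, that rose 2.32-fold (adjusted p = 0.0278). H2ax rose 1.76-fold. Tacc3, a spindle protein also not called present on any sham array, was at least 3.88-fold higher (adjusted p = 0.0375). Plk1, the polo-like kinase, had a dim probe set that rose 2.84-fold (adjusted p = 0.00763) and a brighter one at 0.55 that did not pass (adjusted p = 0.0677). Mki67, the antigen of cycling cells, read 634, 762 and 825 against 748, 1474 and 1854. OBX replicate 1 lay within the sham range and replicates 2 and 3 above it, so the log2 change of 0.79 did not pass (adjusted p = 0.188). A dimmer Mki67 probe set read 295, 650.2 and 567 against 374, 285 and 384, a log2 change of -0.47 that did not pass either (adjusted p = 0.407). Without OBX replicate 3, 1 of the 45 rose, and without replicate 1, 25, at backgrounds of 1.31% and 14.4%.

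For DNA replication 4 of 33 tested genes rose and 0 fell. Uhrf1, which keeps DNA methylation through replication, was called present on 0 sham arrays and was at least 1.99-fold higher (adjusted p = 0.0301). Mcm3 and Mcm7, subunits of the replicative helicase, rose 1.77-fold and 1.61-fold (adjusted p = 0.0427 and 0.0408), and a dimmer Mcm3 probe set 2.63-fold. Rrm2, the ribonucleotide reductase subunit of S phase, rose 1.69-fold. The list held 0 calls without OBX replicate 3 and 8 rises without replicate 1, the latter at a background of 14.4%. Pcna, the sliding clamp of DNA polymerase, read 4798, 3903 and 4480.3 against 5001, 5201 and 4990.2. Its OBX values lay just above the sham values, and the log2 change of 0.21 did not pass (adjusted p = 0.366). Cyclin and cell cycle control genes rose in 4 of 29 and fell in 0, among them Ccnd1, cyclin D1 (1.55-fold), and the inhibitors of division Cdkn1c (1.93-fold), Gadd45a (1.8-fold) and Gadd45b (1.87-fold). Those control genes held 0 calls without OBX replicate 3, and 10 rises and 3 falls without replicate 1.

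Cell cycle genes often share promoter elements, the cell cycle homology region TTTGAA and the CCAAT box, so the promoters of Cdc20 and Cks1b are shown. They are the called mitotic genes with TTTGAA within 20 bases before the start and more than 1 CCAAT. Cdc20, an activator of the anaphase promoting complex, was chosen after its values were seen. It read 1189, 1422 and 1357 on the sham arrays and 2644, 1887 and 2243 on the OBX arrays, all higher, with a log2 change of 0.76 ± 0.17 (adjusted p = 0.0406). The sequences run from 250 bases before to 50 bases after the RefSeq start in build GRCm38.p6, with the motif letters in capitals on either strand. Cdc20 lies at chr4:118437294-118437593 and Cks1b at chr3:89418242-89418541, both on the minus strand, and each is printed in the direction of the gene.
Cdc20: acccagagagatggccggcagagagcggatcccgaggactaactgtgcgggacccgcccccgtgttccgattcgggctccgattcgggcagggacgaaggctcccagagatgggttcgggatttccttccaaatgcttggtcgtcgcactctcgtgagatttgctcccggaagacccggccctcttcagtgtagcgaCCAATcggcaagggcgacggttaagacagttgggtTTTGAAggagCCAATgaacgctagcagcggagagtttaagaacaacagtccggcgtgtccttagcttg
Cks1b: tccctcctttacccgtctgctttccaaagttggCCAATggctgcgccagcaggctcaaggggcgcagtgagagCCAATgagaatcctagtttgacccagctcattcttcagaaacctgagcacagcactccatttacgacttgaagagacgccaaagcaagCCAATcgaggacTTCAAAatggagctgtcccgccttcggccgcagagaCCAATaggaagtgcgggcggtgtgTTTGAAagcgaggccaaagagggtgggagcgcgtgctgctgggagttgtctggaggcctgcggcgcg
In Cdc20 TTTGAA begins 18 bases before the start, between CCAAT boxes at 53 and 8 bases before it. In Cks1b TTTGAA begins 77 and 17 bases before the start, and CCAAT at 217, 177, 89 and 41. The matches do not overlap. TTTGAA was found in 4 of the 7 promoters of called mitotic genes in the table and in 18.1% of all 27025 promoters, and CCAAT in 3 of 7 and in 37.9%. The E2F motif TTTCCCGC was found in 2 of 4 promoters of called replication genes, those of Mcm3 and Mcm7, and in 1.11% of all. Among the 4398 promoters of genes tested the shares were 11.9% for TTTGAA, 38.6% for CCAAT and 2.30% for the E2F motif. A match is a description of the letters in these windows.

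Bowman's gland and secreted defence proteins held some of the largest rises. Of 31 tested 9 rose and 0 fell, and the median log2 change of 0.59 was nearly the same on each OBX array (0.64 to 0.67). Chil1, a chitinase-like secreted protein, read 357, 395 and 432 on the sham arrays and 2838, 1675 and 1937 on the OBX arrays, 5.33-fold higher (2.41 ± 0.22, adjusted p = 0.00724). Every OBX value lay far above every sham value. Ltf, lactoferrin, an iron-binding protein of glands and neutrophils, read 5741, 6066 and 6136 against 18599, 16932 and 23877 and rose 3.28-fold (adjusted p = 0.00724). Wfdc2, a secreted protease inhibitor, read 7034, 7713 and 6751 against 23311, 19911 and 16721 and rose 2.77-fold (adjusted p = 0.00724). Those were bright and well separated on every array. Tff2, a mucus-stabilising trefoil peptide, rose 2.63-fold, Azgp1 1.99-fold, and Pigr, which carries IgA across epithelium, 1.92-fold (adjusted p = 0.0143, 0.0158 and 0.0149).

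Slpi, an inhibitor of leukocyte proteases, had 2 tested probe sets. The dimmer read 409.8, 533 and 534 on the sham arrays and 2193, 2163 and 3929 on the OBX arrays and rose 5.43-fold (adjusted p = 0.00724). The brighter had 0.52 and did not pass (adjusted p = 0.117). With untreated mice in place of sham, the dimmer probe set had a log2 change of 1.08 that did not pass (adjusted p = 0.0818). Pip, a secreted aspartyl protease, read 101, 115 and 151 against 236, 566 and 783 and rose 3.91-fold (adjusted p = 0.0413). Against untreated mice its log2 change was 0.44 (adjusted p = 0.646), which did not pass. Lcn2, the siderophore-binding protein of neutrophils and inflamed epithelium, was looked at after its values were seen. It read 917, 7570.0 and 1028 on the sham arrays and 8891, 17054 and 12489 on the OBX arrays, and did not pass (log2 change 2.68 ± 0.75, adjusted p = 0.0754). Sham replicate 2 was nearly as high as OBX replicate 1. A second Lcn2 probe set had -0.17. The whole list of secreted proteins had 16 rises without OBX replicate 1 and 8 without replicate 3.

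Sustentacular cells and xenobiotic metabolism gave 5 rises and 2 falls among 52 tested, against 3.76% and 3.44% of all genes. The median log2 change was 0.33. Leaving out OBX replicate 1 gave 19 rises and 5 falls, and leaving out replicate 3 gave 6 and 1. Cyp2f2, a cytochrome P450 abundant in olfactory mucosa, read 27104, 25920.1 and 25974 against 36096, 31054 and 25945, overlapping groups with a log2 change of 0.22 that did not pass (adjusted p = 0.38). Cyp1a1, the P450 of the aryl hydrocarbon response, read 1707, 1633 and 1472 on the sham arrays and 5245, 3758 and 2953 on the OBX arrays and rose 2.42-fold (1.28 ± 0.22, adjusted p = 0.02). Its highest OBX value was on replicate 1. Gsto1, a glutathione transferase, rose 2.04-fold, Cyp3a13 1.85-fold and Ces1d, a carboxylesterase, 1.53-fold. Gstm5 rose 1.62-fold on its brightest probe set and 2.54-fold on another, its dimmest had 0.91 and did not pass, and its family shares sequence, so the gene behind the signal is uncertain. Nqo1, a quinone reductase, was 1 of the 2 members that fell, and the cell type behind its signal was not tested. It read 2701, 2735 and 3665 against 1259, 1055 and 904 and fell 2.82-fold (adjusted p = 0.0101), with a second probe set 2.59-fold lower. The second member to fall, Sult1d1, a sulfotransferase, read 5391, 4459 and 4828 against 524, 2016 and 1651, lowest on replicate 1, and was 4.05-fold lower (adjusted p = 0.0435).

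**Figure D3:**
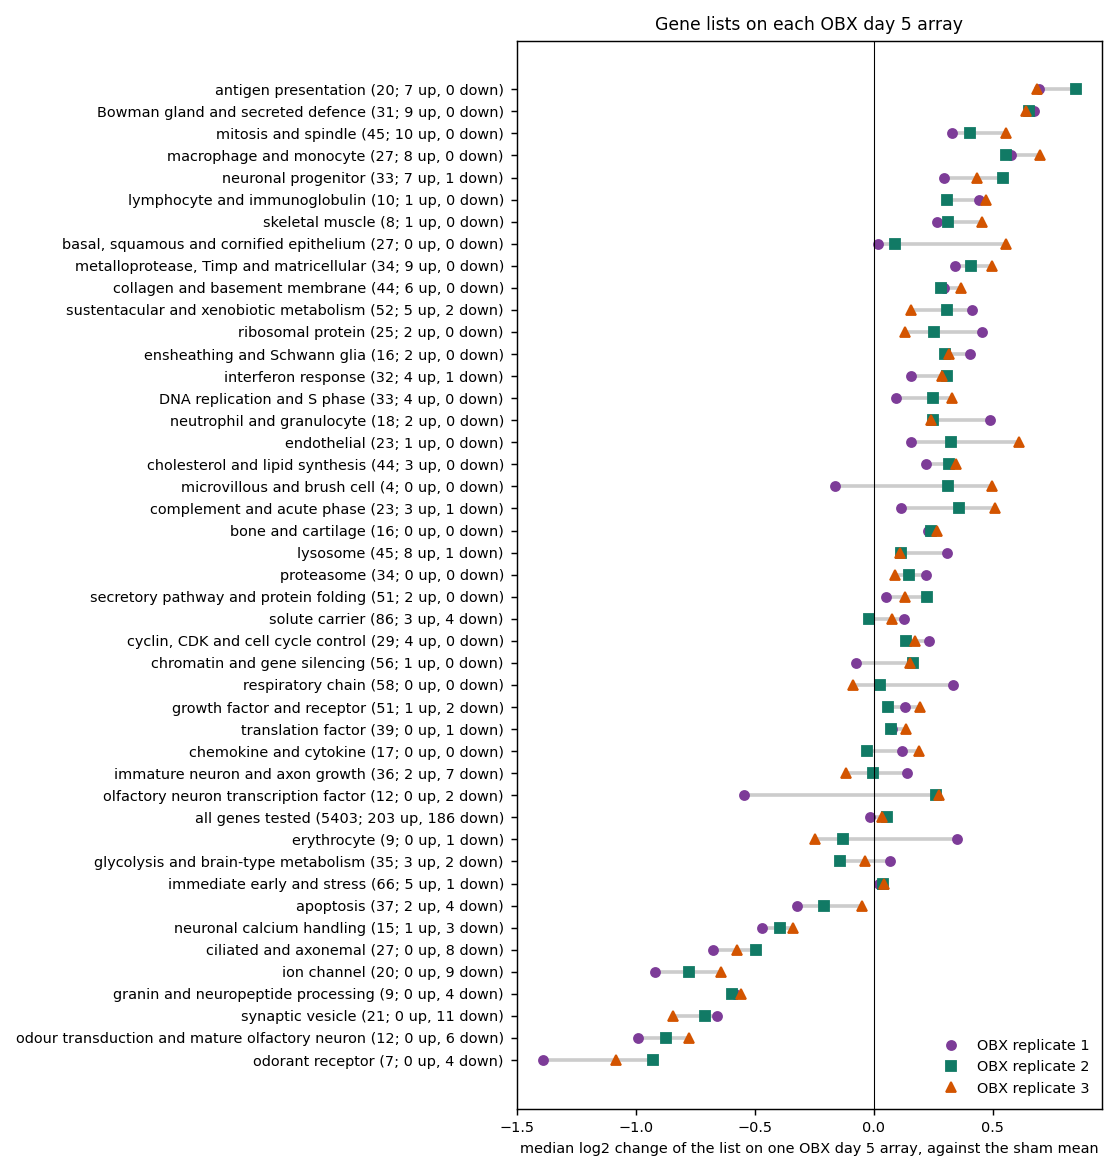
Median log2 change of each gene list on each OBX day 5 array against the sham mean (horizontal axis), with the genes tested and the numbers up and down in brackets. Circles, squares and triangles are OBX replicates 1, 2 and 3. Antigen presentation, Bowman's gland and macrophage lie farthest right and odorant receptor farthest left on every array, while olfactory neuron transcription factors and basal and squamous epithelium spread widely.

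Macrophage genes rose. Of 27 tested 8 rose and 0 fell, with a median log2 change of 0.43, and the summed signal of the 27 was 39536 to 47196 on sham arrays and 58338 to 65326 on OBX arrays. Lgals3, galectin-3, a marker of phagocytic macrophages, read 1044, 1064 and 939 on the sham arrays and 2453, 2153 and 2781 on the OBX arrays, 2.41-fold higher (1.27 ± 0.15, adjusted p = 0.00763). Lyz2, lysozyme, read 2384, 3210.0 and 2587 against 5208, 7461 and 8617 and rose 2.57-fold (adjusted p = 0.0171). Both were higher on all OBX arrays. Csf1r, the receptor for the macrophage growth factor, rose 1.68-fold, Sirpa 1.98-fold, Tyrobp, a signalling adaptor, 2.31-fold and Cd52 1.64-fold. Cd68, a lysosomal glycoprotein of macrophages, read 1387, 1573 and 1451 against 2498, 1512 and 2035. OBX replicate 2 lay within the sham range, and the log2 change of 0.43 did not pass (adjusted p = 0.237). Rises in the list numbered 2 without OBX replicate 3 and 13 without replicate 1, at backgrounds of 1.31% and 14.4%.

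Lysosomal genes rose in 8 of 45 and fell in 1, against 3.76% and 3.44% of all genes, with a median of 0.15. Ctsh, a cathepsin protease, read 1172, 1269.6 and 1432 against 2944, 2866 and 3021 and rose 2.29-fold (adjusted p = 0.0076), with OBX values close together. Ctsz, Grn, Npc2 and Gusb rose 1.92-fold, 1.82-fold, 1.76-fold and 1.72-fold. The member that fell was Acp2, an acid phosphatase, 1.84-fold. Lysosomal rises numbered 4 without OBX replicate 3 and 16 without replicate 1, at backgrounds of 1.31% and 14.4%. Complement and acute phase genes rose in 3 of 23 and fell in 1, against 3.76% and 3.44% of all genes. C1qb, a chain of the complement component that tags debris, read 929, 1316 and 1152 on the sham arrays and 3718, 3696 and 2920.0 on the OBX arrays, 3.05-fold higher (1.61 ± 0.18, adjusted p = 0.00747). C1qa rose 2.26-fold (adjusted p = 0.017). Clu, clusterin, a secreted chaperone, read 8098, 11702 and 8646 against 21439, 26497 and 22561 and rose 2.5-fold (adjusted p = 0.0102). Its sham replicate 2 and OBX replicate 2 were the highest of their groups, with a wide gap between. The one that fell was a probe set of Cr1l, a membrane regulator of complement (1.59-fold), while a second had 0.05 and did not pass. Complement rises numbered 3 without OBX replicate 3 and 10 without replicate 1, at the same backgrounds.

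Antigen presentation held the highest share of rises among the lists, 7 of 20 with 0 falls and a median log2 change of 0.68. B2m, beta-2 microglobulin, which pairs with every class I heavy chain, read 6041, 8708 and 7714 on the sham arrays and 15433, 22207 and 15122 on the OBX arrays and rose 2.34-fold (1.22 ± 0.20, adjusted p = 0.0195). The class I heavy chain probe sets of H2-K1, H2-D1 and H2-Q4 rose 1.9-fold, 2.08-fold and 2.14-fold. These genes are near-identical in parts, so which of them a probe set measured is uncertain. Psme1, of the proteasome activator, rose 1.8-fold and Ifi30, a lysosomal thiol reductase of class II presentation, 2.38-fold. With scan day as a term in limma these genes, from B2m to Ifi30, did not pass (adjusted p = 0.118 to 0.501). The log2 change of B2m was then 0.66. The 20 genes summed to 49683 to 68243 on sham arrays and 96484 to 109919 on OBX arrays. Without OBX replicate 1 the rises numbered 12, and without replicate 3 they numbered 5, at backgrounds of 14.4% and 1.31%.

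The interferon list gave 4 rises and 1 fall in 32 tested, against 3.76% and 3.44% of all genes, with a median of 0.28. It had 9 rises and 3 falls without OBX replicate 1, at backgrounds of 14.4% and 11.3%. Without replicate 3 it had 1 rise and 0 falls, at backgrounds of 1.31% and 1.46%. Ifitm3, an antiviral membrane protein, read 8137, 9789.7 and 8849 against 19909, 14887 and 15379.6 and rose 1.86-fold (adjusted p = 0.0205). Irf8, a myeloid transcription factor, rose 2.45-fold, Lgals3bp 1.63-fold, and Usp18, present on 0 sham arrays, was at least 1.95-fold higher (adjusted p = 0.0486, 0.0395 and 0.0389). Of the 32 genes, 22 had a log2 change above 0 and 10 below, the lowest at -2.15. The 1 of these 10 that passed was Ifit1, an antiviral RNA-binding protein induced by type I interferon. It read 557, 564 and 588 on the sham arrays and 84.4, 226 and 232 on the OBX arrays, 3.46-fold lower (adjusted p = 0.0394). Against untreated mice Ifit1 had a log2 change of -1.50 and did not pass (adjusted p = 0.0648). The promoters of Ifit1 and Ifitm3 are shown because the genes moved in opposite directions and both hold the interferon response element searched on both strands as TTTC, any pair of bases and TTTC, in capitals. Ifit1 lies at chr19:34640639-34640938 on the plus strand and Ifitm3 at chr7:141010695-141010994 on the minus strand.
Ifit1: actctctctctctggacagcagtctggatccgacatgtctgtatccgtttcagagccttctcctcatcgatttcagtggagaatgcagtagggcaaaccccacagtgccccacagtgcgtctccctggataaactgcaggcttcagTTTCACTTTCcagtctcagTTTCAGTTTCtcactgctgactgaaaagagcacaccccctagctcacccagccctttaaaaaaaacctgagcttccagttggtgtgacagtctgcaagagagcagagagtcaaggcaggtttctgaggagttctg
Ifitm3: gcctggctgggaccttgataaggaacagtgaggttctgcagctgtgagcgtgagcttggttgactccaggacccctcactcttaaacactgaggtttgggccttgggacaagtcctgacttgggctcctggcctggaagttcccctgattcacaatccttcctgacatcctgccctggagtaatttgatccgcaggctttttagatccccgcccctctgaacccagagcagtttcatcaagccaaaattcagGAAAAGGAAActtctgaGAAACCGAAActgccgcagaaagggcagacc
In Ifit1 the matches begin 104 and 85 bases before the start. In Ifitm3 they begin at bases 3 and 20 after it and lie on the opposite strand. The motif was found in 2 of the 4 promoters of called interferon genes in the table and in 2 of 7 of antigen presentation. It was found in 3.49% of all 27025 promoters and in 3.09% of the 4398 promoters of genes tested.

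Collagen and basement membrane genes rose in 6 of 44 and fell in 0, against 3.76% and 3.44% of all genes. Col4a1, a basement membrane collagen, read 1302, 1468 and 1465 against 2690.3, 2538 and 3269 and rose 2-fold (1.00 ± 0.15, adjusted p = 0.0158). OBX replicate 3 was highest, and no OBX value fell within the sham range. Col4a2 rose 1.63-fold, Nid2, a basement membrane linker, 2.05-fold and the fibrillar collagen Col3a1 1.56-fold on its brightest probe set, with 2 others at 0.47 and 0.63 that did not pass. Proteases, their inhibitors and matricellular proteins rose in 9 of 34 and fell in 0. S100a6, a calcium-binding protein, read 10066, 11398 and 11208 against 23548, 20080.5 and 17882 and rose 1.87-fold (adjusted p = 0.017). Tnc, tenascin-C, a matrix protein of repair, rose 1.68-fold (a dimmer probe set had 0.84 and did not pass), Acta2, smooth muscle actin, 2.16-fold, Tagln 1.75-fold and Anxa2 1.73-fold. Collagen rises numbered 1 and matricellular rises 4 without OBX replicate 3, at a background of 1.31%. Without replicate 1 they numbered 15 and 16, at a background of 14.4%. Cldn5, a tight junction protein of endothelium, was the 1 of 23 endothelial genes that rose, 1.96-fold (adjusted p = 0.0226). That count is near the 3.76% of all genes called higher. Aqp1, a water channel, and S100b, with 1.67-fold and 1.71-fold, were the 2 of 16 glial genes that rose.

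The spread among the OBX arrays came mostly from replicate 1, and for some genes from replicate 2 or 3. OBX replicate 1 was the farthest from the other two in 65.4% of probe sets, and 730 probe sets were lower on it by more than 1 on the log2 scale than on both others, against 18 on replicate 2 and 15 on replicate 3. Tiparp, an ADP-ribosyltransferase of the aryl hydrocarbon response, read 749, 681 and 804 on the sham arrays and 93.6, 577 and 915 on the OBX arrays. Replicate 1 was far below every other array, and the log2 change went from -1.02 to -0.03 without it. Pik3c2a and Znrf2 were likewise low on replicate 1 alone. Among the 232 probe sets that fell, replicate 1 was the least reduced in 113, replicate 2 in 89 and replicate 3 in 30.

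The keratins Krt6a and Krt10 were high on OBX replicate 3 alone. Krt6a, of stressed and squamous epithelium, read 813, 987 and 936 against 984, 692 and 13577, and Krt10, of cornifying epithelium, 768, 691 and 896 against 638, 741 and 10257. Replicates 1 and 2 stayed near the sham level for both, and neither passed (adjusted p = 0.494 and 0.513). Gm10229 was also high on replicate 3 alone. Krt19, a keratin of simple and basal epithelium, read 774, 1129 and 835 against 2083, 1366 and 1554, highest on replicate 1 and above sham on all 3 OBX arrays, and did not pass (adjusted p = 0.058). Of the 27 basal, squamous and cornified genes tested limma called 0. There were 4 at an unadjusted p under 0.05, against 1351 of all 5403 genes. Without OBX replicate 1 limma called 7 of the 27 higher, at a background of 14.4%. Sprr1a, of the cornified envelope, was present on 0 sham arrays and read 1426, 1455 and 4249 on the OBX arrays (adjusted p = 0.111). The summed signal of the 27 was 58300.2 to 62455 on sham arrays and 59888 to 106105 on OBX arrays. What part this had in other results was not tested.

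Immunoglobulin transcripts, made by plasma cells, were high on OBX replicates 1 and 3 and not on replicate 2. Igha, the IgA heavy chain, read 560.5, 662 and 843 on the sham arrays and 17739, 949 and 9984 on the OBX arrays. The light chain Igkv6-23 read 473, 638 and 803 against 20242, 863 and 8526. Both had OBX replicate 2 just above the sham values, and log2 changes of 3.02 and 3.09 did not pass (adjusted p = 0.101 and 0.11). Of 10 lymphocyte genes 1 rose, Xbp1, a factor of secretory cells (1.51-fold, adjusted p = 0.0413).

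**Figure D4:**
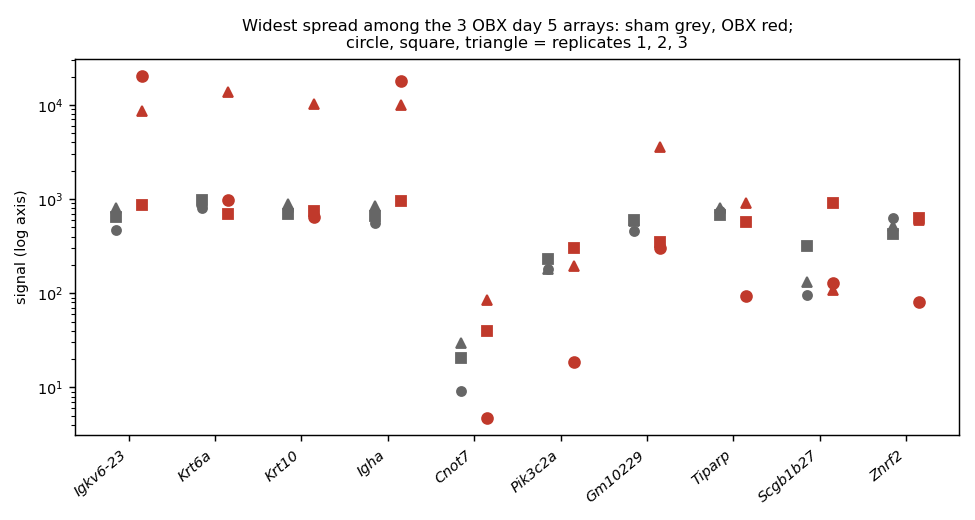
Signal (log axis) of the 10 probe sets with the widest spread over the OBX day 5 arrays, for sham arrays (grey) and OBX arrays (red), with replicates 1, 2 and 3 as circle, square and triangle. Krt6a, Krt10 and Gm10229 are high on replicate 3 alone, Igha and Igkv6-23 are low on replicate 2, and Tiparp, Pik3c2a and Znrf2 are low on replicate 1.

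Of 37 programmed cell death genes 2 rose and 4 fell, against 3.76% and 3.44% of all genes. Their median log2 change was -0.13, with 26 genes below 0 and 11 above. Bid, a death agonist of the BCL2 family, rose 2.05-fold and Bag3, a co-chaperone, 1.95-fold (adjusted p = 0.0341 and 0.0171), while a second Bag3 probe set had 0.59 and did not pass. This list had 4 rises and 7 falls without OBX replicate 1, at backgrounds of 14.4% and 11.3%. Without replicate 3 it had 1 and 2, at backgrounds of 1.31% and 1.46%. Gas2, Bok and Bcl6 fell 2.18-fold, 2.09-fold and 1.49-fold, beside Cidea above. Among 56 genes of chromatin and silencing Uhrf1 was the 1 that rose and 0 fell. For growth factors and receptors, 1 of 51 rose, Igfbp2 (1.6-fold), and 2 fell, Bmp6 (2.61-fold) and Fgf12 (2.59-fold). The neuronal isoforms Eno2, an enolase, and Eef1a2, a translation factor, fell 1.81-fold and 2.09-fold (adjusted p = 0.0237 and 0.0362).

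Other lists held few calls, and most held more without OBX replicate 1, when 14.4% of all genes were called higher and 11.3% lower. Of 58 respiratory chain, 34 proteasome, 17 chemokine and cytokine, 16 bone and cartilage and 4 microvillous cell genes limma called 0. In that order 7, 4, 2, 5 and 1 were at an unadjusted p under 0.05, against 1351 of all 5403 genes. Ndufs4, of complex I, read 1109, 1125 and 1092 against 368, 754 and 542, lower on all OBX arrays, and just missed the threshold (adjusted p = 0.0523). Ccl9, a chemokine of myeloid cells, read 918, 2049.5 and 919 against 2518, 3374 and 2835 and did not pass either (adjusted p = 0.0571). Of 25 ribosomal proteins Rpl13a (2.47-fold) and Rps19 (1.95-fold) rose. In lipid metabolism Acsl5, Acadl and Cpt1a, enzymes of fatty acid activation and oxidation, were the 3 of 44 that rose (1.73-fold, 1.74-fold and 1.7-fold). Solute carriers rose in 3 of 86 and fell in 4, both near the shares of all genes. Among them the glucose transporter Slc5a1 was 1.65-fold higher and the bicarbonate transporter Slc4a4 2.31-fold lower. Erythrocyte genes fell in 1 of 9, Ank1 (2.09-fold), and rose in 0. Of 66 immediate early and stress genes 5 rose and 1 fell, most of them named above. Neutrophil genes rose in 2 of 18, one of them Ltf. Of 8 muscle genes 1 rose, the enolase Eno3 (1.59-fold).

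Some of the deepest falls belong to no neuronal group above. Clip4, a microtubule-binding protein, read 1884, 1634 and 1657 on the sham arrays and 238, 354 and 444 on the OBX arrays, 5.15-fold lower (-2.36 ± 0.24, adjusted p = 0.00724). Olfm1, olfactomedin 1, a secreted glycoprotein of neurons, read 6009, 5329 and 5099.7 against 1846, 1496 and 886 and fell 4.06-fold (adjusted p = 0.0101). Both were below sham on every OBX array, with replicate 1 lowest for Clip4 and highest for Olfm1. Ppargc1a, a coactivator of mitochondrial genes, fell 4.05-fold from a dim signal (adjusted p = 0.0171). Nme4, a mitochondrial nucleoside kinase present on 0 sham arrays, was at least 3.79-fold higher (adjusted p = 0.0305).

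The change at day 5 against sham was set against the change at OBX day 1 against untreated mice, with no array shared. The difference of the changes was higher at day 5 for 47 of 6950 probe sets (0.676%) and lower for 74 (1.06%), and 95 of the 480 called at day 5 were among these. Day 1 had no sham group of its own. With scan day as a term the counts were 7 higher and 12 lower. Leaving out 1 sham or OBX day 5 array gave 17 to 121 higher and 30 to 191 lower. The highest counts, 121 and 191, came without OBX replicate 1, and the lowest without sham replicate 1.

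Clip4 read 1266, 1723 and 2013 on untreated arrays and 1706, 1920 and 2109 on OBX day 1 arrays, which overlap, while OBX day 5 lay far below both. The difference of changes was -2.58 ± 0.31 (adjusted p = 0.000664). Drd2, the dopamine D2 receptor, which olfactory neurons carry, read 2736, 3083 and 2526 on the sham arrays and 1232, 982 and 616 on the OBX day 5 arrays, a 3.06-fold fall (adjusted p = 0.0171). At day 1 it read 3088, 2669 and 2652, close to the untreated 2782, 2296 and 2665, and the difference was -1.73 ± 0.27 (adjusted p = 0.00494). Plk1, by its dim probe set, read 228, 273 and 389 on untreated arrays and 273, 290.3 and 175 at day 1. The difference was 1.77 ± 0.31 (adjusted p = 0.0111). No day 1 signal of this probe set was called present, nor were those of untreated replicates 1 and 2. Clip4 and Plk1 kept the difference with scan day as a term (adjusted p = 0.00757 and 0.0135), and Drd2 did not (adjusted p = 0.0723).

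For other genes the day 1 arrays stood apart from all others. Calb1, calbindin, a calcium buffer, read 458, 799.5 and 451 on untreated arrays and 92.3, 29.7 and 73.5 at day 1. At day 5 it read 615, 498 and 482 against 857, 823 and 874 on sham arrays. No day 1 signal of Calb1 was called present, nor were those of untreated replicates 1 and 3. At day 5 it was lower on every OBX array without passing the test, and the difference was 2.54 ± 0.47 (adjusted p = 0.0136). Osmr, the oncostatin M receptor, read 1435, 2125 and 1852 at day 1 and 399, 863 and 1075 at day 5, where it overlapped sham. Mbl2, a mannose-binding lectin, read 933, 759 and 874 at day 1 and 153, 234 and 344 at day 5. For these the differences were -1.76 ± 0.40 and -1.89 ± 0.45 (adjusted p = 0.0380 and 0.0462).

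Cyp1a1 was 758, 964 and 803 at day 1, below all untreated arrays, and above all sham arrays at day 5, a difference of 2.01 ± 0.33 (adjusted p = 0.00666). Rgr, a retinal G protein coupled receptor, read 1248, 944 and 1104 on the sham arrays and 2262, 2438 and 1808 on the OBX day 5 arrays, and 697, 770.2 and 691 at day 1, a difference of 1.70 ± 0.19 (adjusted p = 0.000459). It too was below untreated at day 1 and above sham at day 5. Set against the change at OBX day 7 from untreated mice, limma called 0 probe sets different from day 5 either way (0.0%), with a smallest adjusted p of 0.161 and 259 at an unadjusted p under 0.05. That does not show the changes to be alike.

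**Figure D5:**
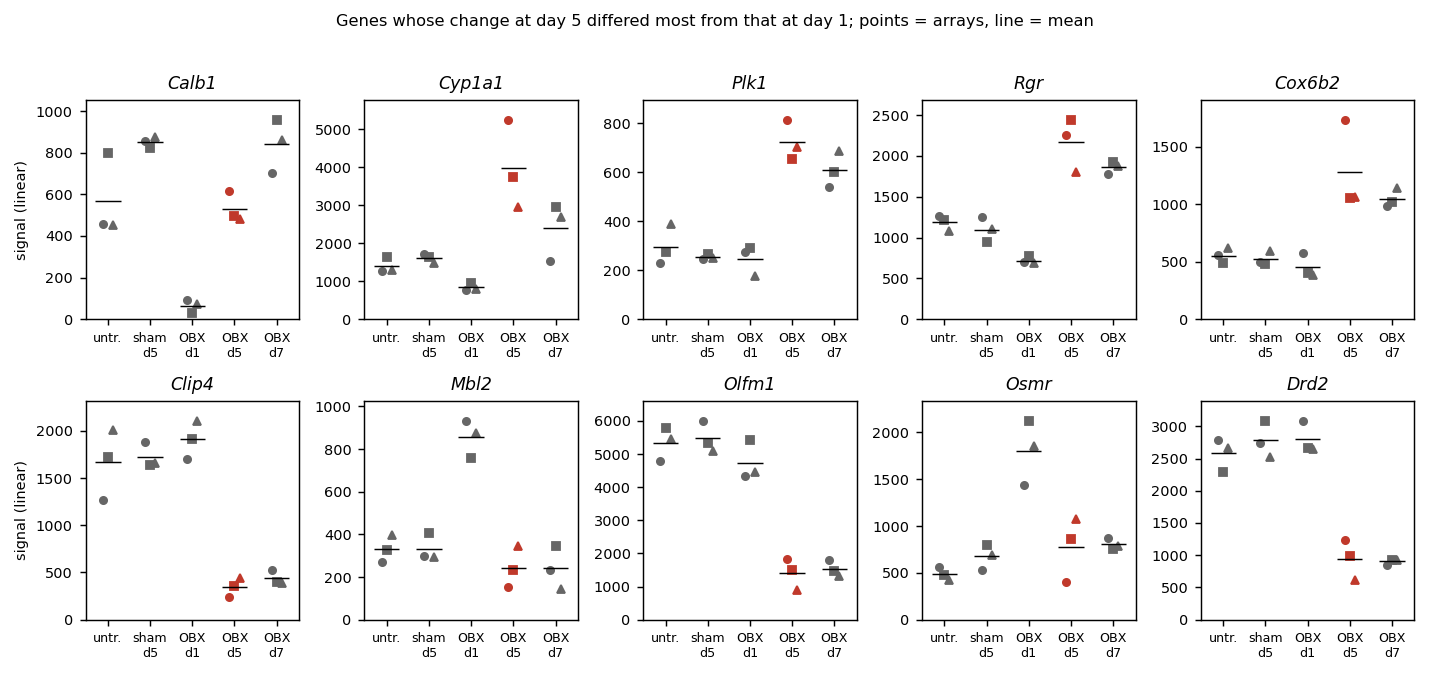
Linear signal (vertical axis) of the 10 genes whose change at day 5 differed most from that at day 1, on the 3 arrays of each of the 5 groups (untreated, sham day 5, OBX days 1, 5 and 7), with OBX day 5 in red and a line at each mean. Calb1 is lowest at day 1, Mbl2 and Osmr are highest there, and Clip4, Olfm1 and Drd2 are low at days 5 and 7.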

How the data were processed

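Total RNA of olfactory epithelium, pooled from 3 mice, was hybridised to 1 MG_U74Av2 array a sample, per the labels. The deposited values are linear signal intensities, each with its detection p-value and call. The authors' scaling was read from the values: the mean signal without the lowest and highest 2% was 1499.77 to 1499.8 on every array. The method that made the signals is not given in the sources used here. Detection p-values, as deposited, were used through the calls only.

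Signals below 1 were set to 1 (47 values on the 6 arrays) and log2 taken, with no further normalization. Control probe sets (66) were left out. Probe sets with 3 or more present calls among the 6 arrays entered limma 3.58.1 in R 4.3.3 (lmFit, eBayes with a variance trend), 2-sided, with Benjamini-Hochberg adjustment over all 6950 and a threshold of 0.05. Tables and figures were made with Python 3.11.15. The fit was tested on simulated data with the same SD in both groups. That test does not cover the wider spread of the OBX arrays. Changes at day 5 were set against those at days 1 and 7 in a fit of all 15 arrays. A fold is 2 to the power of the log2 change. "At least" is used where a probe set was present on no array of the dimmer group, with the dimmer value taken as its own signal or the lowest present one, whichever was larger.

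Probe sets were named from the platform annotation: 10833 have 1 gene, 396 several and 1193 none, and only the first are named. Probe sets made for several related genes leave the gene uncertain. Lists use each gene's brightest tested probe set. Genes were named by a rule: marker genes, the 12 largest rises and 12 largest falls, up to 6 called genes of each of 44 lists (2 where none passed), the 10 widest spreads over the OBX arrays, and the 5 largest differences each way from day 1. Members and lists were chosen with earlier results of these data known.

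Replicate numbers were checked for pairing: deviations of same-numbered sham and OBX arrays correlated at -0.21, -0.20 and -0.00, so the numbers were not taken as pairs. Alternatives were other scalings, filters and offsets, no variance trend, array weights, other controls, scan day, a replicate block and leaving out each array. The number of arrays limits the precision.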

Additional observations from a re-analysis of the deposited data

Results flagged for a closer look

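The change from control differed between day 5 and day 1 after bulbectomy for 47 probe sets that were higher at day 5 and 74 that were lower, by the test of the difference itself in limma. Among the named genes the difference was positive for Calb1 (2.54), Cyp1a1 (2.01), Plk1 (1.77), Rgr (1.70) and Cox6b2 (1.57), all on the log2 scale. It was negative for Clip4 (-2.58), Mbl2 (-1.89), Olfm1 (-1.85), Osmr (-1.76) and Drd2 (-1.73). With scan day as a term Plk1, Rgr and Clip4 still passed and the other 7 did not. For Calb1 and Plk1 no day 1 signal was called present. Day 1 was set against untreated mice and day 5 against sham, so the operation itself is part of the difference.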

How the results depend on the processing

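Counts of 248 higher and 232 lower stayed within 1.5 times under quantile normalization, median centring, no filter, a present call on all 3 arrays of a group, an offset of 100, no variance trend and untreated mice as control. They moved further with all 15 arrays in 1 fit (873 and 684), scan day as a term (19 and 51), a replicate block (41 and 71), array weights (1217 and 973), and sham and untreated arrays together as control (900.0 and 736). Leaving out 1 array gave 0 to 955 higher and 0 to 760 lower. Of the 162 called probe sets checked, scan day as a term kept 27 calls and the replicate block 45. The counts of differences from day 1 (47 and 74) became 7 and 12 with scan day as a term, and 17 to 121 and 30 to 191 without 1 array. The counts of differences from day 7 (0 and 0) became at most 1 each way without 1 array.

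None of the 162 called probe sets checked changed direction under the alternatives run, but some of the 36 uncalled ones did. Over the sets that leave out 1 array, the log2 change spanned -0.14 to 2.01 for Krt6a, -0.18 to 1.82 for Krt10, -0.73 to 1.06 for Gm10229 and -0.36 to 1.73 for a dim Cnot7 probe set, each lowest without OBX replicate 3. It spanned -1.23 to 0.25 for Znrf2, -1.69 to 0.31 for Pik3c2a and -0.41 to 0.13 for a second Cnot7 probe set, each highest without OBX replicate 1, and with array weights these were 0.14, 0.23 and 0.066. Scgb1b27 spanned -0.42 (without OBX replicate 2) to 1.11, and Osmr -0.18 to 0.53. Osmr was also below 0 without OBX replicate 2 (-0.02) and without sham replicate 1 (-0.05). Against untreated mice Scgb1b27 was -0.060 and the dim Cnot7 probe set -0.58. That probe set was -2.13 with scan day as a term and -0.031 against sham and untreated arrays together. Scan day and operation cannot be told apart in the 6 arrays, and for the other shifts the cause was not tested.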
